A study of Homo sapiens with 24 samples.

Results

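The proteasome subunit genes were defined here as the genes of the deposited table whose symbols begin with PSMA, PSMB, PSMC or PSMD and a digit, and 1 symbol of this pattern was left out by the rule. The rule found 37 of the 14585 genes in the table. Of these, 36 encode subunits or dedicated assembly chaperones of the proteasome. The other, PSMC3IP, encodes a meiotic recombination factor that was named for its binding to PSMC3 and is not a subunit. RNA was sequenced from 2 human cell lines, A549 (lung carcinoma) and Huh7 (hepatocellular carcinoma), each untreated or treated with an extract of 1 of 3 herbal materials. These were Pulsatilla chinensis (P. chinensis) and Bupleurum chinense (B. chinense), both plants, and Polyporus umbellatus (P. umbellatus), a fungus. Each of the 8 groups held 3 libraries, 24 in all, and the labels give the genotype of every sample as WT. The dose and time for the sequenced cells, and whether control cells received the solvent, are not given in the sources used here.

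The proteasome is the main protease for ubiquitin-tagged proteins in the cytosol and nucleus. Its barrel-shaped core is built of outer rings of alpha subunits and inner rings of beta subunits, and the cutting sites sit on PSMB5, PSMB6 and PSMB7. A cap on the end of the core has a base, with a ring of ATPases (PSMC genes) that unfold substrates, and a lid (most PSMD genes) that removes ubiquitin. The subunit genes are known to be induced together by the transcription factor NFE2L1 when proteasome activity is short, and interferon induces PSMB8 and PSMB10, which replace PSMB5 and PSMB7 in the immunoproteasome.

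Library totals ranged from 6803704 to 24345541 counts, with a median of 10515192. The 34 members other than PSMB8, PSMB10 and PSMC3IP, called the constitutive genes below, were well counted, while the mean count of those 3 over all libraries was under 100. The lines were checked against marker genes of their labels. Summed CPM (counts scaled to a common library total) of 8 hepatocyte genes, among them ALB, APOB and SERPINA1, ranged from 117 to 133 in A549 controls and from 20720 to 21180 in Huh7 controls. Of the genes chosen to mark A549, KRT18 and KRT8 were higher in A549 controls by 0.83 and 0.44 on the log2 scale, while EPCAM and SFTPB were higher in Huh7 controls. NKX2-1, SFTPC and NAPSA were chosen as well but had no row in the deposited table. Summed over the 6 genes of that list, A549 controls held 8796 to 9248 CPM and Huh7 controls 3991 to 4216 CPM. Markers of immune, endothelial and fibroblast cells (6 genes) summed to between 26.98 and 30.86 CPM in A549 controls and to 75.3 to 79.1 CPM in Huh7 controls. These sums moved with treatment. The hepatocyte genes summed to between 48.4 and 59.4 CPM in treated A549 cells, and in Huh7 to between 13030 and 13870 CPM with P. chinensis, 18930 and 19520 CPM with B. chinense, and 19360 and 24390 CPM with P. umbellatus. The A549 genes summed to between 9320 and 10860 CPM in treated A549 cells, and the other markers to between 29.8 and 39.3 CPM. In treated Huh7 cells these 2 lists ran from 2482 to 5586 CPM and from 76.8 to 100.5 CPM. Their part in the results below was not tested. Replicate 2 of the Huh7 P. umbellatus group stood apart from the other libraries. Over the 34 constitutive genes it was the highest of the 12 Huh7 libraries for 15 genes and the lowest for 8, so the calls for that group against control are given with and without it. Replicate 1 of the same group was the lowest Huh7 library for 12 genes. The labels do not say that replicates were separate cultures, so p-values measure the spread between these libraries, and in bulk RNA a change in the cells present cannot be told apart from a change of RNA per cell.

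Proteasome genes are known targets of transcription factors that bind antioxidant response elements, so the windows around their start sites (250 bases before to 50 after, RefSeq, GRCh38.p14) were searched for the core letters of that element, TGACNNNGC, on both strands. Windows were held for 32 of the 37 members, and none for PSMA7, PSMB1, PSMB6, PSMB7 and PSMD4. The core was in at least 1 window of 9 of the 32 members (28.12%), against 19.01% of the 11758 genes of the table with a window and 16.06% of all 27305 genes with one. Of the 9, PSMC4 and PSMD1 held it only after the start site. The other 7 members held it before the RefSeq start site of a window. Their matches are shown because they can be set beside the changes of the same genes below. For PSMA4 and PSMC5 the match lies after the first base of the gene in the GENCODE annotation of GRCh38 (78540405 and 63827152). In these genes it precedes only the start site of its own window. Capitals mark the match, and the reverse complement of the letters is capitalised in PSMC5 and in the first PSMD9 line.
PSMA4 (chr15:78540640-78540688, forward strand): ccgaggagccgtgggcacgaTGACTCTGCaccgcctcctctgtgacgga
PSMB3 (chr17:38752617-38752665, forward strand): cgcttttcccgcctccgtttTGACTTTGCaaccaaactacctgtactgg
PSMC5 (chr17:63827644-63827692, forward strand): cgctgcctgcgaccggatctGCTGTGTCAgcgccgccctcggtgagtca
PSMD12 (chr17:67366714-67366762, reverse strand): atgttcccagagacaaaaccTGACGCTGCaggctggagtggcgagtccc
PSMD3 (chr17:39980750-39980798, forward strand): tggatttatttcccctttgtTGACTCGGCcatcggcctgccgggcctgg
PSMD5 (chr9:120843028-120843076, reverse strand): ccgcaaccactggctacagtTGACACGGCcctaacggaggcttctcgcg
PSMD9 (chr12:121888621-121888669, forward strand): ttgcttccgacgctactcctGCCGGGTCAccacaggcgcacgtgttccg
PSMD9 (chr12:121888668-121888716, forward strand): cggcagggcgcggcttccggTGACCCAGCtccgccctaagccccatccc
A match to these letters is a description and says nothing of binding. The shorter CCAAT letters, a common promoter element, were in windows of 17 of the 32 members (53.12%) and of 43.31% of the table's genes with a window.

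In A549 cells most proteasome genes had a lower mean after each extract, by small amounts, and 15 to 18 of the 37 passed the test. PSMB8 was called higher with all 3 extracts, but it has a row in the table only through its counts in treated A549 libraries. PSMB10 was called higher with P. chinensis and B. chinense. A gene was called changed when the adjusted p of edgeR's quasi-likelihood test (Benjamini-Hochberg over all genes tested in the line) was below 0.05. With P. chinensis 15 of 37 members fell and 2 rose, where 17.1% of all 13633 genes tested fell and 15.8% rose. With B. chinense 18 fell and 2 rose, against 15% and 13.1% of all genes. With P. umbellatus 15 fell and 1 rose, against 14.8% and 13.4%. Below, runs of 3 values without names follow the order P. chinensis, B. chinense, P. umbellatus. The median change of the 34 constitutive genes was -0.18, -0.21 and -0.18 on the log2 scale, while the median of all genes was 0.01, -0.00 and -0.01. When each library was corrected for the GC content and length of transcripts, a step added after the data were seen, the medians of the 34 genes were -0.12, -0.14 and -0.10. The group mean was below the control mean for 31, 32 and 32 of the 37 members, that is 83.8%, 86.5% and 86.5%, where 48.4%, 50.2% and 51.7% of all genes had a lower mean. The 3 comparisons share their control libraries, so they do not repeat each other independently.

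Summed over the 34 constitutive genes, control A549 libraries held 4770, 4783 and 4896 CPM. The sums in treated cells were 4302 ± 70.7, 4212 ± 42.2 and 4326 ± 88.1 CPM (SD, n = 3), against 4817 ± 69.5 CPM in controls. Every treated A549 library lay below every control library, the highest treated value being 4427. In Huh7 cells the sums were 5263 ± 61.7 CPM in controls and 5348 ± 38.2, 5161 ± 81.5 and 5273 ± 287 CPM in treated cells, and the 3 Huh7 P. umbellatus libraries spread from 4942 to 5456.

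**Figure D1:**
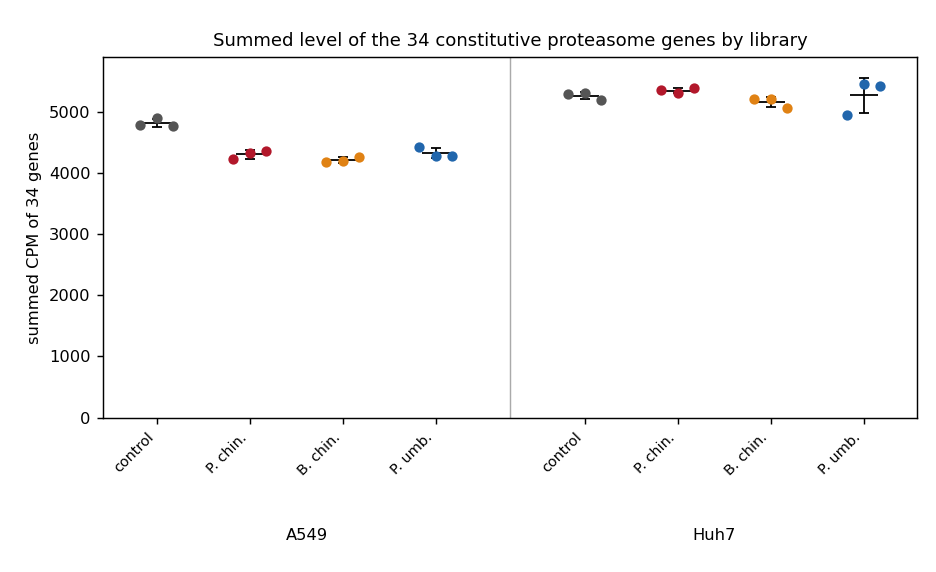
Summed CPM of the 34 constitutive proteasome genes (y axis, from 0) in each of the 24 libraries, by line and extract (x axis), with CPM scaled within each line. Points are libraries and bars are mean and SD (n = 3), and all treated A549 libraries lie below the 3 A549 controls, whose mean is 4817, while Huh7 groups overlap.

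Among the 37 members, 11 fell in A549 with all 3 extracts: PSMA3 and PSMA7 of the alpha ring, PSMB2 and PSMB3 of the beta ring, the ATPases PSMC3 and PSMC6, the base scaffold PSMD1, the lid subunits PSMD11, PSMD12 and PSMD14, and the base chaperone PSMD5. In all, 21 members fell with at least 1 extract, 2 rose with at least 1, and 14 were called with none. The 14 were PSMA1, PSMA5, PSMA6, PSMB1, PSMB4, PSMB6, PSMC2, PSMC4, PSMC5, PSMD2, PSMD4, PSMD8, PSMD9 and PSMD10. Among the 7 members shown above with the antioxidant core before a RefSeq start site, PSMB3, PSMD5 and PSMD12 fell with all 3 extracts, PSMA4 fell with B. chinense and P. umbellatus, PSMD3 fell with P. chinensis, and PSMC5 and PSMD9 were called with none. With the GC and length correction, only PSMB2, PSMC3, PSMD1 and PSMD11 of the 11 stayed lower with all 3 extracts. PSMA3 and PSMD5 were then called with none, and PSMA7, PSMB3, PSMC6, PSMD12 and PSMD14 with only some of them.

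**Figure D2:**
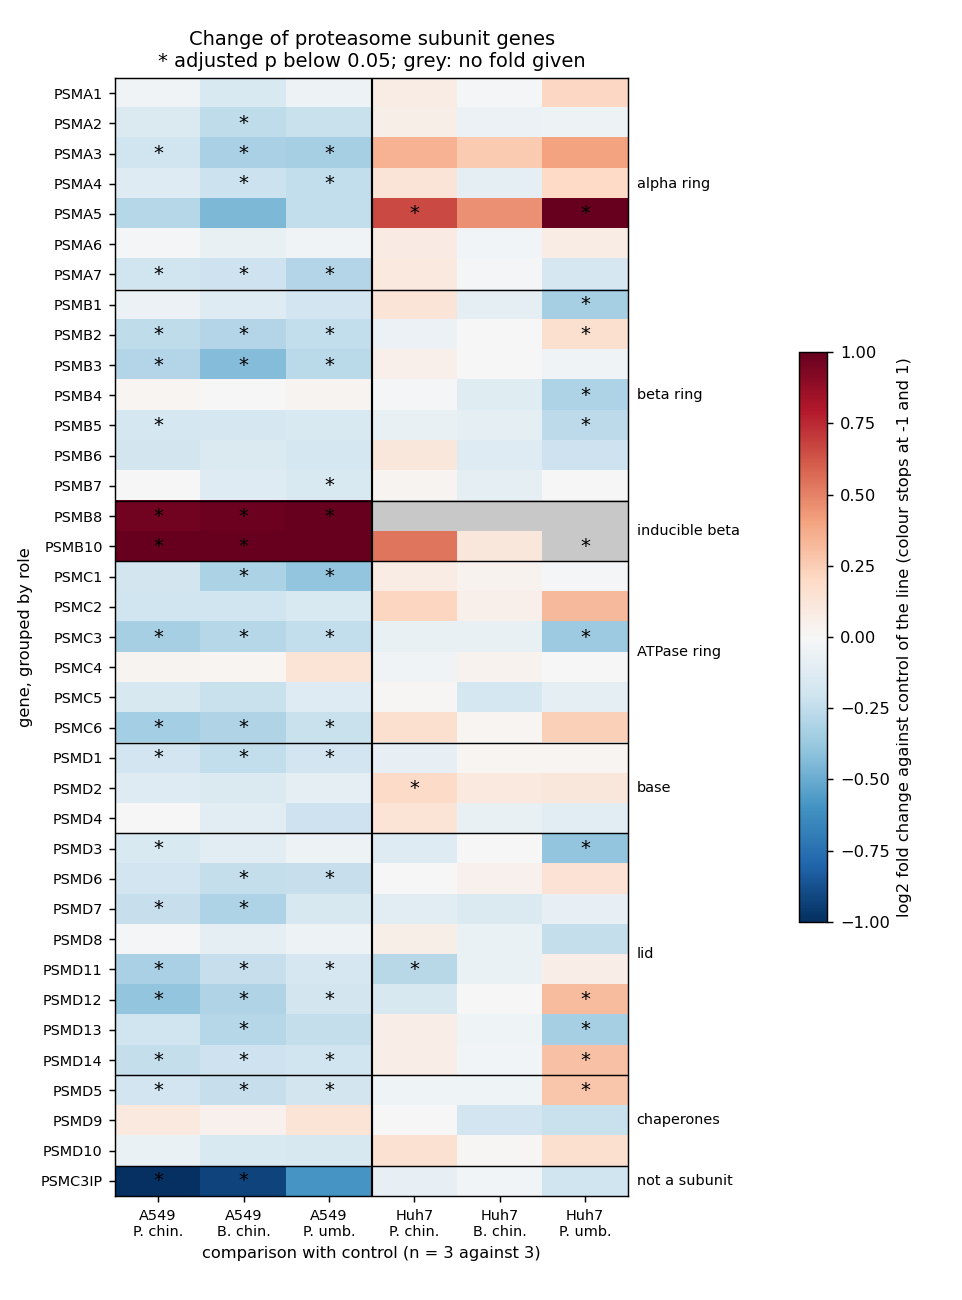
Log2 fold change against the control of the line (colour, which stops at -1 and 1) for each member (y axis, grouped by role) in the 6 comparisons (x axis, 3 libraries against 3). Stars mark adjusted p below 0.05 and grey cells have no fold. The A549 columns are mostly blue apart from PSMB8 and PSMB10, with 15, 18 and 15 members called lower, and the Huh7 columns are mixed.

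The alpha ring, whose subunits form the gate of the core, had lower group means throughout in A549. The test called 2, 4 and 3 of its 7 genes lower and none higher. The median changes were -0.14, -0.22 and -0.24 on the log2 scale, and the mean of all 7 lay below control in each comparison. PSMA5 had the largest change of the ring with P. chinensis, at -0.28 ± 0.22 (SE), which did not pass the test (adjusted p = 0.362, edgeR). The A549 control libraries held 52.6, 42.5 and 32.6 CPM of PSMA5 and the P. chinensis libraries 40.7, 27.8 and 35.9, so the groups overlapped.

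The beta ring had 3, 2 and 3 of 7 genes lower in A549, with medians of -0.18, -0.14 and -0.17 on the log2 scale. PSMB3, a structural subunit without a cutting site, had the largest change with P. chinensis, -0.29 ± 0.07 (adjusted p = 0.00606). With the GC and length correction this change was -0.12 and was not called (adjusted p = 0.274, edgeR). PSMB5, on chr14:23016543-23035230 in the GENCODE annotation of GRCh38, carries the chymotrypsin-like site. Its level was 169, 189.5 and 183 CPM in A549 controls and 158, 166 and 154 CPM with P. chinensis. All P. chinensis libraries lay below all controls, the log2 fold change was -0.18 ± 0.06 and the adjusted p 0.0341. Leaving out replicate 2 of the control took this call away (-0.14, adjusted p = 0.159), as did leaving out control replicate 3 or P. chinensis replicate 1 or 3. With B. chinense the PSMB5 levels were 157, 152 and 174 CPM (log2 fold change -0.17, adjusted p = 0.0537), and with P. umbellatus they were 168, 159 and 160.3 CPM (-0.15, adjusted p = 0.0752). The B. chinense values overlapped the controls, and the P. umbellatus values lay just below them.

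PSMB6 (chr17:4796144-4798502), the gene of the caspase-like site, was called in none of the A549 comparisons. Controls held 107, 115 and 100.4 CPM, and the 9 treated libraries ranged from 83.6 to 109 CPM, so each treated group overlapped the controls. PSMB7 (chr9:124353465-124415444), which carries the trypsin-like site, stood at 122, 127 and 121 CPM in controls and at 123, 120.2 and 125 CPM with P. chinensis, a log2 fold change of -0.01 ± 0.05. It was lower with P. umbellatus, at 115, 115 and 103 CPM (-0.15 ± 0.05, adjusted p = 0.0444), a call that was lost in 8 of the 8 alternatives other than leaving out a library. Per kilobase of transcript, the level of the 3 constitutive active-site genes in A549 controls was 173 ± 10.2 CPM per kilobase for PSMB5, 130.4 ± 8.68 for PSMB6 and 125.5 ± 3.41 for PSMB7 (SD, n = 3).

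The inducible subunit genes were the exception to the fall in A549, although both were near the limit of detection. Genes of the table averaged at least 5.04 counts over the 24 libraries, and PSMB8 averaged 5.29. With no count in Huh7 and few in A549 controls, PSMB8 was kept only through the treated A549 libraries, where it was high. Its calls below are therefore not independent of that filter. PSMB8 (chr6:32840717-32844679) had 4, 5 and 6 counts in the controls, 10, 11 and 15 with P. chinensis, 13, 9 and 9 after B. chinense, and 21, 15 and 9 after P. umbellatus. On the CPM scale this was 0.526 ± 0.0464 in controls and 1.22 ± 0.151, 1.24 ± 0.24 and 1.25 ± 0.133 with the extracts in the same order (SD, n = 3), and no treated library overlapped the controls. The log2 fold changes were 0.97 ± 0.32, 0.98 ± 0.33 and 0.996 ± 0.318, with adjusted p of 0.0327, 0.0375 and 0.0304. These calls were lost with DESeq2 (adjusted p = 0.132, 0.141 and 0.121), with the replicate number as a block and when any 1 of the control libraries was left out. PSMB8 shares exon sequence with 1 protein-coding gene on the opposite strand, and whether the counting used strand is not given in the sources used here.

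PSMB10 (chr16:67934506-67936864) had 0, 14 and 11 counts in A549 controls and 29, 40 and 55 with P. chinensis, which did not overlap. Its log2 fold change with P. chinensis was 2.06 ± 0.56 (adjusted p = 0.0107). With B. chinense the counts were 42, 28 and 13, and the change was 1.70 ± 0.56 (adjusted p = 0.0356), a call that was lost on leaving out control replicate 1 (adjusted p = 0.0571) or replicate 3 (adjusted p = 0.0614), or B. chinense replicate 1 (adjusted p = 0.136) or replicate 2 (adjusted p = 0.0669). With P. umbellatus the counts were 60, 15 and 16 in libraries of unequal depth, and the change of 1.29 ± 0.55 did not pass the test (adjusted p = 0.101), though it did with DESeq2 (adjusted p = 0.0469). In CPM, the B. chinense libraries lay above the controls, and the lowest P. umbellatus library was level with the highest control at 1.38. The PSMB10 call with P. chinensis was kept in each of the 12 fits that left out a library. PSMB10 shares exon sequence with 1 protein-coding gene on the same strand, so its few counts are less certain. In A549 cells treated with P. chinensis, PSMB10 stood at 4.26 ± 0.879 CPM per kilobase and PSMB8 at 1.09 ± 0.134, where PSMB7 and PSMB5, which they replace in order, stood at 125 ± 2.61 and 153 ± 5.93.

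Other interferon-linked genes were examined beside them. In A549 cells, 6, 8 and 6 of 15 such genes rose, where 15.8%, 13.1% and 13.4% of all genes did. With each extract 1 fell, where 17.1%, 15% and 14.8% of all genes fell. The medians of the 15 were 0.43, 0.45 and 0.43 on the log2 scale. In Huh7 cells, 7, 0 and 2 of 12 rose, where 10.5%, 0.519% and 19.3% of all genes did. Those that fell there numbered 0, 0 and 1, where 10.5%, 0.757% and 17.8% of all genes fell. Chosen after their values were seen, IRF1, an activator of antigen-presentation genes, rose by 1.15, 0.94 and 0.82, and TAP1, a peptide transporter encoded beside PSMB8, rose by 1.44, 1.37 and 1.29. OAS1 was the gene that fell, by 1.04, 1.18 and 1.30. The part of these genes' regulators in the change of PSMB8 and PSMB10 was not tested.

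**Figure D3:**
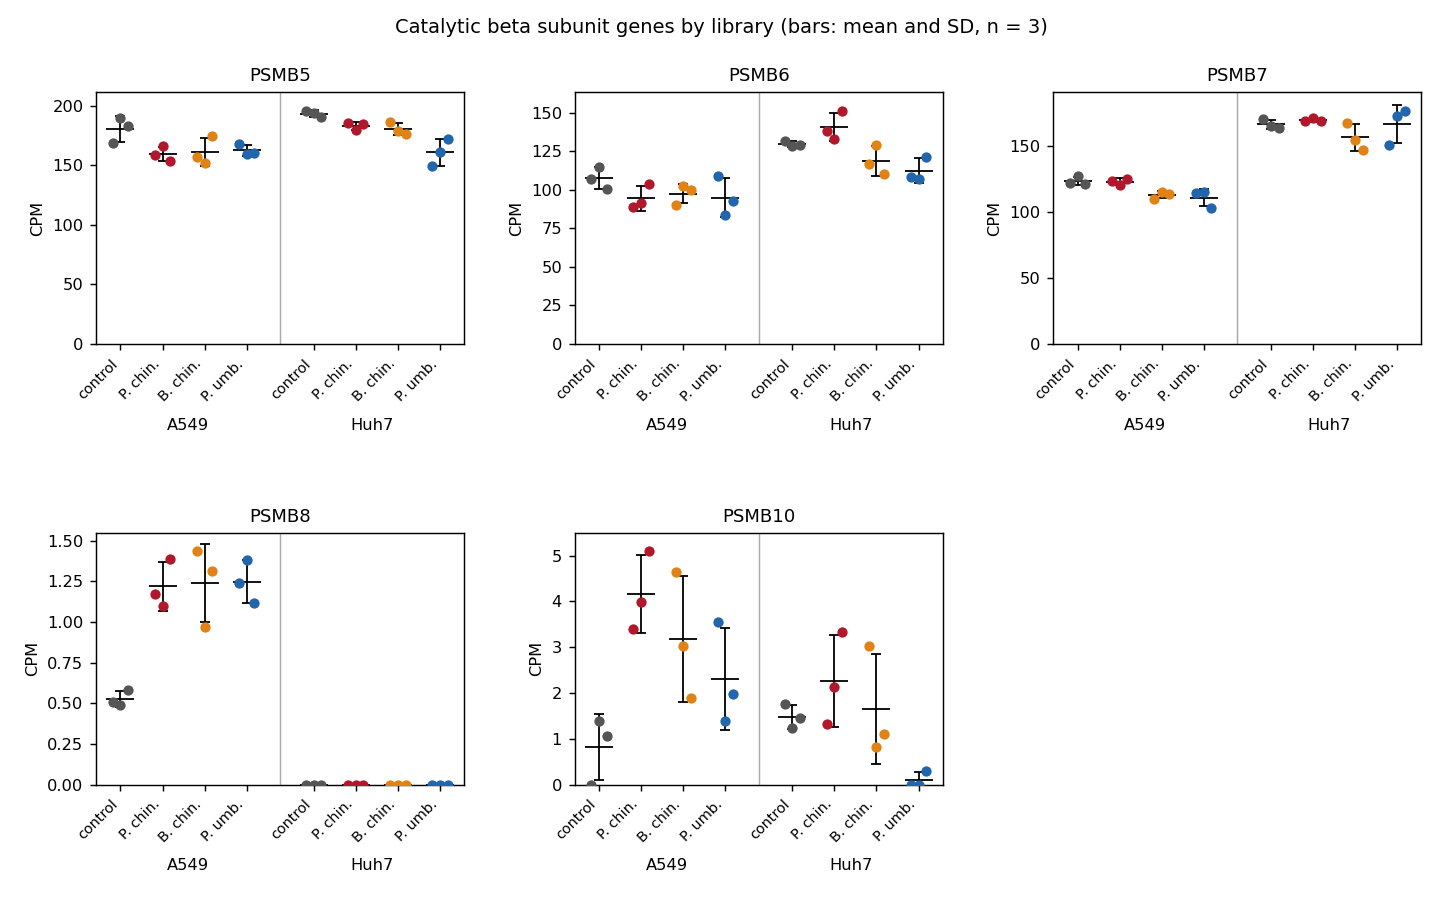
CPM (y axis, from 0, separate scale per gene) of the constitutive active-site genes PSMB5, PSMB6 and PSMB7 and the inducible PSMB8 and PSMB10 in each library, by line and extract (x axis). Points are libraries and bars are mean and SD (n = 3). PSMB8 rose from 0.526 CPM in A549 controls to 1.22 CPM or more and was at 0 in all Huh7 libraries.

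The cap genes followed the core in A549. The test called 2, 3 and 3 of the 6 ATPase genes lower and none higher. PSMC6 had the largest change of the ring with P. chinensis (-0.34 ± 0.07, adjusted p = 0.00142), while PSMC4 was at 0.03, 0.02 and 0.14 with the 3 extracts and was not called. PSMC1 (chr14:90256527-90275429), an ATPase gene with 13 named pseudogenes whose reads may be shared, had the largest called fall with P. umbellatus. It held 102, 121 and 103 CPM in controls, 86.5, 76.3 and 85.4 CPM with P. umbellatus, 92.2, 83.8 and 85.9 CPM with B. chinense and 89.6, 94.8 and 104 CPM with P. chinensis. The P. umbellatus and B. chinense libraries lay below all controls (-0.40 ± 0.08, adjusted p = 0.00185, and -0.32 ± 0.08, adjusted p = 0.00888), and the P. chinensis libraries overlapped them (-0.18, adjusted p = 0.101).

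Of the 3 remaining base genes, 1 fell with each extract in A549, the scaffold PSMD1, whose change with P. chinensis was -0.19 ± 0.05 (adjusted p = 0.0106). The lid had 5, 6 and 4 of 8 genes called lower and all 8 means below control with every extract. Its medians were -0.22, -0.24 and -0.18 on the log2 scale. PSMD12, a scaffold subunit of the lid, changed most with P. chinensis (-0.39 ± 0.06, adjusted p = 0.000199), and PSMD14, the enzyme that strips ubiquitin from substrates, fell by 0.23, 0.21 and 0.20 on the log2 scale. PSMD11 (chr17:32444379-32483319), a lid subunit known to stabilise the joined core and cap, had among the lowest adjusted p. Its A549 controls held 449.7, 430.3 and 425 CPM, the P. chinensis libraries 362, 346 and 336 CPM, the B. chinense libraries 367, 366 and 377 CPM, and the P. umbellatus libraries 370.2, 391 and 398 CPM. No treated library reached a control. The changes were -0.32 ± 0.04, -0.23 ± 0.04 and -0.17 ± 0.04, with adjusted p of 5.72e-05, 0.00116 and 0.00912.

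Of the base chaperones PSMD5, PSMD9 and PSMD10, which help to assemble the ATPase ring, PSMD5 fell with each extract (-0.19 ± 0.06 with P. chinensis, adjusted p = 0.0233). These PSMD5 calls were lost with the GC and length correction. The other two were not called. The largest fall among all 37 members with P. chinensis and B. chinense was that of PSMC3IP (chr17:42572310-42577831), which is not a proteasome subunit. Its A549 controls held 6.84, 6.89 and 7.33 CPM, the P. chinensis libraries 1.64, 3.40 and 2.22 CPM, the B. chinense libraries 3.53, 3.78 and 3.51 CPM, and the P. umbellatus libraries 5.50, 3.50 and 4.71 CPM, all below the controls. The changes were -1.46 ± 0.26 (adjusted p = 0.000636), -0.92 ± 0.26 (adjusted p = 0.016) and -0.59 ± 0.25 (adjusted p = 0.0982).

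**Figure D4:**
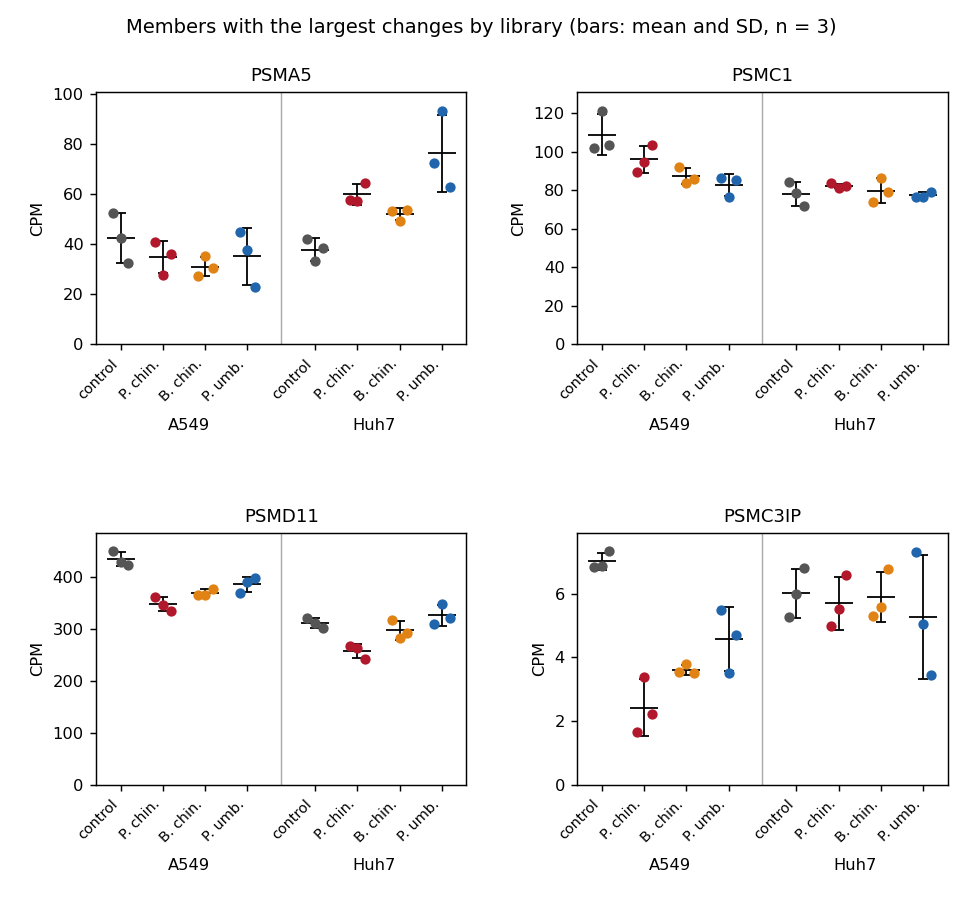
CPM (y axis, from 0, separate scale per gene) of PSMA5, PSMC1, PSMD11 and PSMC3IP in each library, by line and extract (x axis). Points are libraries and bars are mean and SD (n = 3). PSMD11 and PSMC3IP lie below control in all treated A549 libraries, and PSMA5 lies above control in all treated Huh7 libraries, with a mean of 37.8 CPM in Huh7 controls.

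The number of A549 calls depended on single libraries, while the median change moved less when 1 library was left out. Upper quartile scaling and the GC and length correction made the median change smaller. Over the fits that left out 1 library, the medians of the 34 constitutive genes ranged from -0.19 to -0.14, from -0.22 to -0.18 and from -0.20 to -0.15 on the log2 scale. Without control replicate 2, which was the highest of the 12 A549 libraries for 16 of the 34 constitutive genes, 8 members fell with P. chinensis and 7 with P. umbellatus, and without P. umbellatus replicate 3 the second count was 8. Of the 17 members called with P. chinensis, 9 were called whichever library was left out and 6 in each of the 8 other alternatives, and the 6 were PSMB2, PSMC3, PSMC6, PSMD11, PSMD12 and PSMD14. Upper quartile scaling moved the median of all genes by 0.08 or less from 0 and left 8, 12 and 8 members lower, with medians of the 34 constitutive genes of -0.11, -0.16 and -0.14 and 24, 31 and 30 of their means below control. Under that scaling 2 members rose with P. umbellatus where 1 had.

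Extracts were then tested against each other in A549, where edgeR called no member. P. chinensis against B. chinense gave 0 of 37 members, where 1.45% of all genes were called, and the constitutive genes differed by -0.10 to 0.16 on the log2 scale. P. chinensis against P. umbellatus gave 0 (3.01% of all genes) with differences from -0.21 to 0.22. The third contrast, B. chinense against P. umbellatus, gave 0 (0.0513% of all genes) with differences from -0.20 to 0.11. At an unadjusted p below 0.05 these contrasts held 1, 7 and 1 members, and DESeq2 called 0, 2 and 0. Without P. chinensis replicate 2 the second contrast gave 2 calls. A difference that misses the threshold does not show that the extracts act alike.

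In Huh7 cells the proteasome genes did not fall together. PSMB8 had no count in any of the 12 Huh7 libraries, which allows up to 3 counts in each, and 36 members were tested. With P. chinensis 2 rose and 1 fell, where 10.5% of all 13875 genes rose and 10.5% fell, and the median of the constitutive genes was 0.06 on the log2 scale. With B. chinense none was called by edgeR, where 0.519% of all genes rose and 0.757% fell. At an unadjusted p below 0.05 there was 1, and DESeq2 called 1 higher. Under P. umbellatus 5 rose and 7 fell, where 19.3% and 17.8% of all genes did, and the median of the constitutive genes was 0.00. In all, 22 of the 36 were called in no Huh7 comparison. With the GC and length correction the medians of the 34 constitutive genes were -0.03, -0.04 and -0.07, with 20, 22 and 22 means below control. The medians of all genes were then 0.01, -0.00 and -0.05. With the RLE scaling in place of TMM, 1 rose and 1 fell with P. chinensis, and 3 rose and 7 fell with P. umbellatus. Without P. umbellatus replicate 2, 3 fell with P. chinensis and 1 rose with B. chinense.

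PSMA5 (chr1:109399042-109426448), an alpha ring subunit, was the member with the clearest change in Huh7. Controls held 42.0, 33.1 and 38.4 CPM, P. chinensis libraries 57.8, 57.4 and 64.7 CPM, B. chinense libraries 53.4, 49.3 and 53.8 CPM, and P. umbellatus libraries 72.7, 93.3 and 63.0 CPM. All 9 treated libraries lay above all 3 controls. The log2 fold changes were 0.66 ± 0.13 (adjusted p = 0.0036), 0.46 ± 0.13 (adjusted p = 0.137) and 1.005 ± 0.133 (adjusted p = 0.000617). Without the P. umbellatus replicate that stood apart the last value was 0.84 (adjusted p = 0.000147), and in the same fit the B. chinense change passed the test as well (0.46, adjusted p = 0.0124).

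PSMD2, a base scaffold that binds ubiquitin shuttles, rose with P. chinensis by 0.19 ± 0.06 on the log2 scale (adjusted p = 0.0478), a call that was lost when any 1 control was left out. PSMD11 fell with P. chinensis in Huh7 as well. Its Huh7 controls held 321, 312 and 303 CPM and the P. chinensis libraries 267, 263 and 242 CPM, which did not overlap (-0.28 ± 0.07, adjusted p = 0.015). The B. chinense libraries, at 318, 282 and 292 CPM, and the P. umbellatus libraries, at 309, 349 and 320.4 CPM, overlapped the controls. The PSMD11 call was lost without control replicate 1 (adjusted p = 0.0646) and without P. chinensis replicate 3 (adjusted p = 0.076). PSMC1 ranged from 71.6 to 86.5 CPM and PSMC3IP from 3.43 to 7.33 CPM over the 12 Huh7 libraries, and neither was called.

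The largest changes within the other roles with P. chinensis in Huh7 did not pass the test: 0.13 for PSMB1 in the beta ring, 0.22 for PSMC2 among the ATPases, 0.54 for PSMB10 and 0.15 for PSMD10 among the chaperones. Of the active-site genes, PSMB5 held 195, 194 and 190.4 CPM in Huh7 controls and 149, 161 and 172 CPM with P. umbellatus, without overlap (-0.26 ± 0.06, adjusted p = 0.0081, and -0.27 without replicate 2, adjusted p = 0.00439). With P. chinensis it stood at 186, 179 and 184 CPM and with B. chinense at 186, 179 and 176 CPM, both groups below the controls but not called (-0.08 and -0.10). PSMB6 held 132, 128 and 129 CPM in controls, and 108.2, 107 and 121 CPM with P. umbellatus (-0.21, adjusted p = 0.0602, and -0.17 without replicate 2, adjusted p = 0.106). PSMB7 ranged from 147 to 177 CPM over the 12 libraries and was not called.

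PSMB10 was counted 35, 20 and 35 times in Huh7 controls, 33, 50 and 45 times with P. chinensis, and 29, 9 and 13 times with B. chinense. With P. umbellatus the counts were 0, 0 and 3. PSMB10 was called lower with P. umbellatus than in controls (adjusted p = 0.00898, edgeR, and 0.0227 without replicate 2). The control mean was 4.07-fold a floor of 3 counts per library, a ratio of means that makes no allowance for spread. PSMB10 had 61.7% GC, the highest of all members, in a group with the GC trend given below. With the GC and length correction it was still called lower (adjusted p = 0.0315, edgeR).

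With P. umbellatus in Huh7, the direction of change of the constitutive genes followed the GC content of their transcripts. The members called higher, PSMA5, PSMB2, PSMD5, PSMD12 and PSMD14, had 37.5% to 44.2% GC in the canonical transcript, and those called lower, PSMB1, PSMB4, PSMB5, PSMB10, PSMC3, PSMD3 and PSMD13, had 47.9% to 61.7%. Across the 34 constitutive genes Spearman's rho of the log2 fold change with GC content was -0.81, and across all genes it was -0.67. In A549 with the same extract rho was 0.23 over the 34 genes and 0.10 over all genes. Genes are not independent replicates and share their libraries, so these are descriptions. By library, rho against the control mean was -0.23, -0.87 and -0.67 over the 34 genes in P. umbellatus replicates 1, 2 and 3, and -0.55, -0.78 and -0.52 over all genes.

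**Figure D5:**
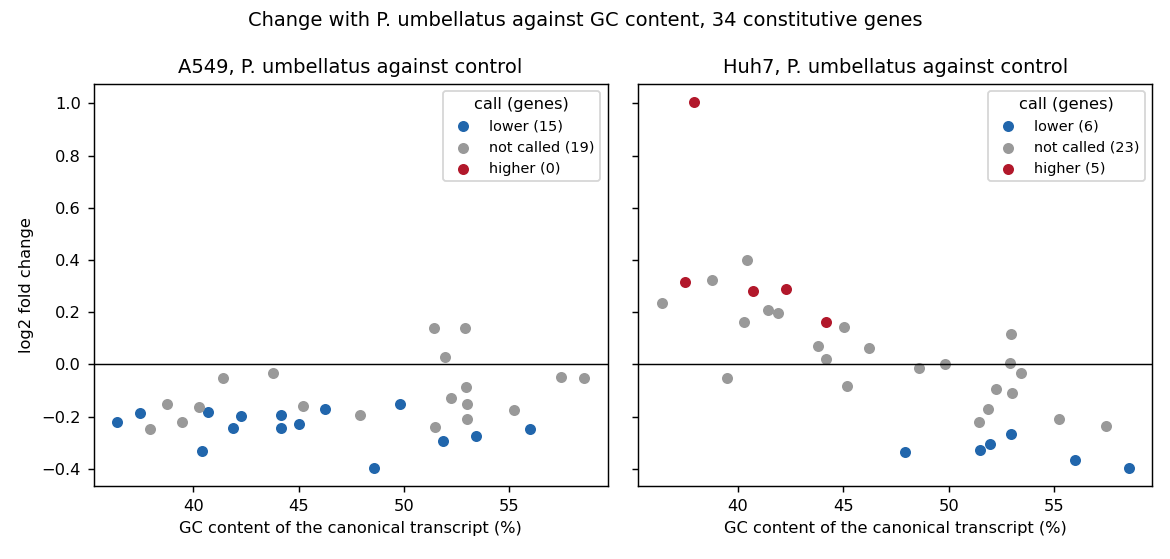
Log2 fold change with P. umbellatus (y axis) against the GC content of the canonical transcript in percent (x axis) for the 34 constitutive genes, in A549 (left) and Huh7 (right). Points are genes, coloured by call. In Huh7 genes of low GC content lie mostly above 0 and genes of high GC content mostly below it (Spearman's rho = -0.81), and in A549 31 of the 34 points lie below 0.

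With the GC and length correction 2 members rose and 4 fell with P. umbellatus in Huh7. PSMA5 (0.58 ± 0.09, adjusted p = 0.00078) and PSMD2 (0.20, adjusted p = 0.00385) were the higher ones, and PSMB1, PSMD7, PSMD13 and PSMB10 the lower ones. PSMB2 (-0.11), PSMD5 (-0.06), PSMD12 (-0.13) and PSMD3 (0.03), called without the correction, changed sign with it and were no longer called. Without replicate 2, 5 rose and 5 fell. PSMB4 (-0.29, adjusted p = 0.079), PSMD13 (-0.25, adjusted p = 0.0555) and PSMD12 (0.13, adjusted p = 0.0854) were then no longer called, PSMD2 (0.18, adjusted p = 0.00623) was, and PSMA5, PSMB2, PSMD5 and PSMD14 stayed higher and PSMB1, PSMB5, PSMB10, PSMC3 and PSMD3 lower. Without replicate 1, 11 rose and 6 fell, and without any 1 of the controls, 1 rose and 3 or 4 fell. Leaving out any 1 P. chinensis or B. chinense library left 3 higher. In each of the 8 alternatives other than leaving out a library, PSMA5 alone of the 12 remained called. In A549 the same correction left 12, 13 and 7 members lower.

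Between extracts in Huh7, 0 of 36 members differed between P. chinensis and B. chinense (7.81% of all genes, edgeR, with 4 at an unadjusted p below 0.05, and 2 called by DESeq2). P. chinensis against P. umbellatus gave 11 members (35.4% of all genes), and B. chinense against P. umbellatus gave 6 (27.3% of all genes). These 2 contrasts hold the libraries with the GC trend, and with the GC and length correction they gave 6 and 1. Single libraries moved these counts. P. chinensis against B. chinense gave 5 calls without P. umbellatus replicate 2 and 1 without replicate 3 (the 12 libraries of a line share 1 estimate of spread). P. chinensis against P. umbellatus gave 7 without P. chinensis replicate 3 and 17 without P. umbellatus replicate 3. B. chinense against P. umbellatus gave 0, 2 and 2 without B. chinense replicates 1, 2 and 3, and 12 and 13 without P. umbellatus replicates 1 and 3.

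The 2 lines were compared directly as an interaction, the response in A549 minus the response in Huh7, over the 36 members tested in both. With P. chinensis 4 members differed (19.6% of all 12924 genes), each more negative in A549: PSMA5, PSMA7, PSMD2 and PSMC3IP. With B. chinense 1 differed, PSMB2 (11.6% of all genes). With P. umbellatus 9 differed (34.4% of all genes), of which 6 were more negative in A549. The medians of the 34 constitutive genes were -0.14, -0.13 and -0.10 on the log2 scale, and the response was more negative in A549 for 28, 26 and 22 of them. With the GC and length correction these medians were -0.02, -0.05 and 0.02, and 20, 22 and 16 genes were more negative in A549. The medians of all genes were then 0.02, 0.02 and 0.10, and without the correction 0.02, 0.01 and 0.03. The first count was 2 without A549 P. chinensis replicate 2, and the third was 14 without Huh7 P. umbellatus replicate 1 and 11 without replicate 2. The second count, 1, was 0 without A549 control replicate 1 or Huh7 control replicate 2, and 6 without Huh7 P. umbellatus replicate 2.

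Before treatment single subunits already differed between the lines, as did a large part of all genes. Comparing controls, 9 of 36 members were higher and 14 lower in A549, against 33.8% and 34.9% of all genes, with a median of -0.12. All 7 beta ring genes had lower means in A549, of which 5 were called, with a median of -0.43. PSMB1 stood at 67.2 ± 5.14 CPM in A549 and 159 ± 7.78 CPM in Huh7 (log2 difference -1.22 ± 0.09, adjusted p = 8.54e-11), and PSMB4 at 156 ± 11.5 and 324 ± 5.82 CPM (-1.03 ± 0.09, adjusted p = 1.81e-09). In the opposite direction PSMA3 stood at 119 ± 2.12 and 56.3 ± 11.4 CPM (1.10 ± 0.19, adjusted p = 2.92e-05) and PSMA6 at 149 ± 9.16 and 73.8 ± 0.88 CPM (1.03 ± 0.13, adjusted p = 2.55e-07). These levels were scaled over all 24 libraries.

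Beyond the subunits, 33 other genes of the pathway were followed from a list chosen with earlier results of these data known. In A549, 10, 8 and 9 of them fell, where 17.1%, 15% and 14.8% of all genes did. Those that rose numbered 1, 2 and 1, where 15.8%, 13.1% and 13.4% of all genes rose. The medians of the list were -0.10, -0.08 and -0.10 on the log2 scale. In Huh7, 2, 0 and 6 fell, where 10.5%, 0.757% and 17.8% of all genes did. Those that rose numbered 3, 0 and 11, where 10.5%, 0.519% and 19.3% of all genes rose. The Huh7 medians were 0.10, -0.00 and 0.06. NFE2L1, the factor that induces subunit genes, was not called in any comparison, with A549 values of -0.02, -0.07 and 0.04 and Huh7 values of 0.22, 0.13 and -0.02. POMP, which matures the core, was not called either, with values from -0.06 to 0.23. ADRM1, a ubiquitin receptor of the cap, fell in A549 with B. chinense (-0.24) and P. umbellatus (-0.40), was at -0.21 with P. chinensis (adjusted p = 0.0668), and fell in Huh7 with P. umbellatus (-0.73).

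UCHL5, the deubiquitinase that ADRM1 anchors to the cap, fell in A549 by 0.81 ± 0.06 (adjusted p = 2.71e-07), 0.56 ± 0.06 and 0.61 ± 0.06 on the log2 scale, which exceeds the fall of each constitutive subunit gene. In Huh7 it was at -0.22 with P. chinensis (adjusted p = 0.137) and rose by 0.42 with P. umbellatus. MAFK, a small partner of NFE2L1, fell in A549 by 0.61, 0.74 and 0.70 and rose in Huh7 with P. chinensis by 0.78 ± 0.14 (adjusted p = 0.00179). MAFF, a second partner of this kind, rose with P. chinensis in both lines, by 0.76 in A549 and 0.89 in Huh7. DDI2, the protease that activates NFE2L1, fell with P. chinensis in Huh7 (-0.33 ± 0.08, adjusted p = 0.0151) and in A549 (-0.22, adjusted p = 0.0304).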

How the data were processed

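The authors estimated transcript abundance with kallisto after read checks with FastQC, against the Ensembl transcripts of GRCh38.p13, kept protein-coding genes with a mean above a minimum, and deposited estimated counts for each gene, in whole numbers that were not scaled for library size. The version and the strand setting of kallisto are not given in the sources used here, and the libraries were stranded total RNA. The lowest gene mean in the table was 5.04 counts. Of 14585 gene IDs, 14584 matched a protein-coding symbol in the GENCODE annotation of GRCh38, and the other was left out of the tests.

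Estimated counts were used as deposited. In each line, genes whose mean count reached 5 were scaled by TMM and all groups of the line were fitted together (edgeR 4.0.16 in R 4.3.3, two-sided quasi-likelihood test, prior count 2). The Benjamini-Hochberg adjustment covered every gene tested, and the threshold was 0.05. Differences between the lines were tested as an interaction over all 24 libraries. DESeq2 1.42.0, RLE and upper quartile scaling, no filter, a minimum mean of 50 counts, a replicate block, only the 6 libraries compared, and leaving out each library were tried as alternatives, and the GC and length correction was added after the data were seen. A group at or under 3 counts in every library got no fitted fold. Standard errors were the absolute log2 fold change divided by the square root of the F value of the test. They carry the spread among replicate libraries as estimated over all groups of the fit. The prior count shrinks fold changes towards 0, most for genes with few counts such as PSMB8 and PSMB10. Library totals ran from 6803704 to 24345541. CPM were scaled within a line, and the tests were tested on simulated data.

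The members and lists were chosen with earlier results of these data known. Values in every library were given for the active-site and inducible genes and for the members with the largest called rise or fall against control. The largest change within each role under P. chinensis was given as a fold change. Of the pathway list, NFE2L1, POMP, ADRM1 and the 3 called genes with the lowest adjusted p under P. chinensis in each line were named. The result for 1 of these is not reported here. PSMC4 and PSMD14 in A549, the members named between control lines and single marker genes were chosen after their values were seen. Exons of 6 members overlap a protein-coding gene on the same strand and those of 6 on the opposite strand, and 15 members have named pseudogenes, so their counts are less certain.

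The replicate numbers were checked for pairing. Deviations from the group means of libraries with the same number correlated at -0.132 to 0.0932 in A549 and at -0.0864 to 0.0758 in Huh7, so the numbers were not taken to pair the groups.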

Additional observations from a re-analysis of the deposited data

Results flagged for a closer look

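The members below changed differently in the 2 lines, by a test of the difference itself (an interaction in edgeR, adjusted p below 0.05 over all genes tested in both lines). Each value is the log2 fold change in A549 minus that in Huh7. After P. chinensis 4 of 36 members differed, where 19.6% of all genes did. The differences were -0.89 for PSMA5, -0.24 for PSMA7, -1.33 for PSMC3IP and -0.27 for PSMD2. After B. chinense 1 of 36 members differed, PSMB2, by -0.25, where 11.6% of all genes differed. After P. umbellatus 9 of 36 members differed, where 34.4% of all genes did. The response was more negative in A549 for PSMA5 (-1.17), PSMB2 (-0.32), PSMC1 (-0.30), PSMD5 (-0.38), PSMD12 (-0.42) and PSMD14 (-0.40), and less negative for PSMB4 (0.42) and PSMD3 (0.43). PSMB10 differed as well (adjusted p = 0.00205), with no fold given because the Huh7 P. umbellatus libraries were at or under the floor. With the GC and length correction the P. umbellatus count was 4, and the differences of PSMD3 (-0.01), PSMD5 (0.02) and PSMD12 (0.06) changed sign and were not called. Without Huh7 P. umbellatus replicate 2 the count was 11.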

How the results depend on the processing

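The counts of members called moved by more than 1.5 times, or to or from 0, in 46 of 181 repeats that used another setting, and the cause was not tested. In A549, members higher with P. chinensis (2) numbered 1 with DESeq2, the replicate block and only the 6 libraries, and 0 with a minimum mean of 50 counts, which drops PSMB8, PSMB10 and PSMC3IP. Members higher with B. chinense (2) numbered 1 with DESeq2 and 0 in the other 3 settings, and with P. umbellatus (1) they numbered 2 with upper quartile scaling and 0 in the same 3. Members lower numbered 8 with upper quartile scaling for P. chinensis and for P. umbellatus, and for P. umbellatus 9 with only the 6 libraries and 7 with the GC and length correction. In Huh7, members higher with P. chinensis (2) numbered 1 with RLE, no filter and the replicate block, and 6 with only the 6 libraries, and those lower (1) numbered 3 with only the 6 libraries and 4 with the GC correction. With B. chinense 1 was higher with DESeq2, only the 6 libraries and the GC correction. With P. umbellatus those higher (5) numbered 3 with RLE and with the minimum of 50, 1 with only the 6 libraries and 2 with the GC correction, and those lower (7) numbered 1 and 4 in the last 2 settings. Between extracts, P. chinensis against P. umbellatus in A549 (0) gave 2 with DESeq2 and 1 with the GC correction. In Huh7 P. chinensis against B. chinense (0) gave 2 with DESeq2, 7 with only the 6 libraries and 1 with the GC correction. P. chinensis against P. umbellatus (11) gave 4 and 6 in the last 2 settings, and B. chinense against P. umbellatus (6) gave 11 with DESeq2, 0 with only the 6 libraries and 1 with the GC correction. Between lines, the P. chinensis count (4) was 2 without a filter, the B. chinense count (1) was 3 with DESeq2 and 2 with the minimum of 50 and the GC correction, and the P. umbellatus count (9) was 4 with the GC correction.

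Leaving out each library in turn, members higher in A549 ranged over 1 to 2, 0 to 2 and 0 to 1, and members lower over 8 to 16, 13 to 20 and 7 to 16. In Huh7 members higher ranged over 1 to 2, 0 to 1 and 1 to 11, and members lower over 0 to 3, 0 to 0 and 3 to 10. Contrasts of extracts ranged over 0 to 0, 0 to 2 and 0 to 0 in A549 and over 0 to 5, 7 to 17 and 0 to 13 in Huh7. Differences between lines ranged over 2 to 6, 0 to 6 and 6 to 14, and between controls over 9 to 9 higher and 12 to 18 lower.

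With the GC correction and P. umbellatus in Huh7, the called members PSMB2 (-0.11), PSMD5 (-0.06) and PSMD12 (-0.13) turned below 0 and PSMD3 (0.03) above 0, and none of these passed the test there. The other reversals against control were of values that had not passed the test. PSMB7 with P. chinensis in A549 was 0.060 with upper quartile scaling, 0.0033 without a filter, 0.019 with the minimum of 50 and 0.078 with the GC correction, and in Huh7 -0.069 with the GC correction. PSMB7 with P. umbellatus in Huh7 was -0.018 with DESeq2, -0.019 with RLE, -0.00134 without a filter, -0.036 with the minimum of 50 and -0.033 with only the 6 libraries. With the GC correction and P. umbellatus in Huh7, PSMB6 was 0.13 and PSMD11 -0.15. Leaving out libraries, PSMB7 ranged from -0.022 to 0.022 (A549 P. chinensis) and -0.042 to 0.071 (Huh7 P. umbellatus), PSMB10 from -0.57 to 0.42 (Huh7 B. chinense), PSMC3IP in Huh7 from -0.19 to 0.012, -0.14 to 0.070 and -0.51 to 0.045, and PSMC1 in Huh7 from -0.030 to 0.089 (B. chinense) and -0.073 to 0.044 (P. umbellatus).

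With the replicate block, the PSMB8 calls in A549 were lost (adjusted p = 0.0556, 0.0631 and 0.0521), as was PSMB10 with B. chinense (0.0666). The numbers share no stated culture or day, so the block is given here only. At this depth PSMB8 and PSMB10 rest on few counts, and their calls are the least certain.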
